A study of Homo sapiens with 16 samples.

Results

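Galectins are a family of animal lectins that bind galactose-containing glycans, mainly through N-acetyllactosamine units. They are made in the cytosol and leave the cell without a signal peptide, so that the same protein can cross-link glycoproteins at the cell surface and recognise glycans exposed inside a damaged endosome or lysosome. In macrophages they are known for regulating T cell survival, clearance of dying cells, phagocytosis and the handling of damaged vacuoles. The genes described here are 5 galectins, LGALS1, LGALS2, LGALS3, LGALS8 and LGALS9, and LGALS3BP, which encodes a secreted glycoprotein ligand of several galectins and is not itself a lectin. They were chosen by gene symbol, with earlier results of these data known. All 6 were found among the 60664 genes of the count table, and 5 of them, all but LGALS2, were among the 15301 genes with enough reads to be tested.

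RNA was sequenced from macrophages made from THP-1, a line of human monocytic leukaemia cells. All cells were differentiated with PMA (phorbol 12-myristate 13-acetate) at 100 ng/mL for 48 h, and all 4 groups share this step. The M0+LPS+IFN-γ+iMSCs group received LPS of Porphyromonas gingivalis at 100 ng/mL and IFN-γ at 20 ng/mL with iMSCs, which are mesenchymal stem cells grown out of induced pluripotent stem cells, in the upper chamber of a Transwell insert. The M0+LPS+IFN-γ group received LPS and IFN-γ without iMSCs, the M0+iMSCs group received iMSCs without LPS and IFN-γ, and the M0 group received neither. Stimulation and co-culture lasted 48 h. Whether the M0 cells were kept for a further 48 h after PMA is not in the labels, so time in culture and treatment cannot be told apart in comparisons with M0. Each group had 4 libraries, of 17336637 to 24368753 counts. Whether the 4 were separate cultures is not in the labels, so the p-values reflect library-to-library spread, which may be only technical. THP-1 is a single tumour-derived line, and the iMSCs shared medium with the macrophages but sat behind a porous membrane. The labels name the co-culture samples by iMSCs, while the count columns matched to them through the labels carry the letters CM, which no label explains.

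The libraries expressed 10 of 12 macrophage markers at a level that could be tested. The markers' summed level was 3750 to 3940 CPM (counts scaled to library size, here after TMM factors) in M0+LPS+IFN-γ+iMSCs, 1600 to 3240 in M0+LPS+IFN-γ (1600 to 1700 without replicate 4), 1770 to 1900 in M0+iMSCs and 1710 to 1830 in M0. CD68 and MRC1, both widely used macrophage markers, had at most 21 and 11 counts in any whole group. Whether these low counts reflect low mRNA or reads lost in counting was not tested. The summed level of 16 mesenchymal stromal cell markers was 503 to 540 CPM in M0+LPS+IFN-γ+iMSCs, 1060 to 1260 in M0+LPS+IFN-γ (1230 to 1260 without replicate 4), 1300 to 1620 in M0+iMSCs and 1520 to 1570 in M0. NT5E held most of that sum in M0, with 1280 ± 25.6 CPM, against 558 ± 63.1 in M0+iMSCs (SD, n = 4), and the single markers did not follow the sum. Of the 11 stromal markers tested, 6 rose and 1 fell with iMSCs alone (6 and 2 without M0+LPS+IFN-γ replicate 4), with a median log2 difference of 1.13, where 36.2% of all genes rose and 33.6% fell, and 5 rose and 4 fell with iMSCs under stimulation, with and without that library, where 38.4% of all genes rose and 36.3% fell. COL6A3, a chain of collagen VI, averaged 282 ± 8.09 CPM in M0+iMSCs and 13.8 ± 1.00 in M0. The receptors PDGFRA and PDGFRB averaged 441 ± 99.8 and 28.6 ± 4.56 CPM in M0+iMSCs, against 80.8 ± 2.44 and 14.7 ± 0.97 in M0. Under stimulation these 3 were lower with iMSCs, with COL6A3 at 0.626 ± 0.0738 CPM in M0+LPS+IFN-γ+iMSCs and 4.26 ± 2.49 in M0+LPS+IFN-γ. In M0+LPS+IFN-γ, replicate 4 held 0.519 CPM of COL6A3 and the other 3 libraries 5.42 to 5.6. PDGFRA stood at 45.2 CPM in replicate 4 against 138 to 149 in the others, and PDGFRB at 0.807 against 2.74 to 2.96. Among the defining stromal markers, COL1A2 had 0 counts in both co-culture groups and COL3A1 had 8 counts in M0+LPS+IFN-γ+iMSCs, whereas DCN (decorin) reached 18.8 ± 2.02 CPM in M0+LPS+IFN-γ+iMSCs, against a mean of 0.0662 CPM in M0+LPS+IFN-γ (SD, n = 4). What share stromal RNA had in the galectin values was not tested. One library, M0+LPS+IFN-γ replicate 4, stood apart: 211 of 4812 well-expressed genes were at least 2-fold away from the other 3 libraries of its group, against 0 to 29 genes in any other library. LGALS3BP averaged too low to be among the well-expressed genes. In replicate 4 LGALS9 held 156 CPM, against 40.7 to 48.1 in the other 3 libraries. LGALS3BP held 102 CPM there, against 14 to 16.3. The tests of these 2 genes and the counts of calls that this library changed are therefore given with and without it.

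LGALS1 gave the largest galectin signal per unit of exon length in every group. It encodes galectin-1, a single-domain lectin that forms homodimers and is known for its effects on activated T cells. The deposited table places it on chromosome 22 at 37675636 to 37679802 of GRCh38.p13, plus strand. In M0+LPS+IFN-γ+iMSCs its 4 libraries held 588, 622, 651 and 660 CPM. In M0+LPS+IFN-γ they held 313, 289, 315 and 240 CPM. In M0+iMSCs they held 234, 250, 196 and 209 CPM, and in M0 273, 256, 249 and 250 CPM. Every library with both stimulation and iMSCs lay above all 12 other libraries, while the other 3 groups overlapped one another.

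LGALS1 was 2.18-fold higher in M0+LPS+IFN-γ+iMSCs than in M0+LPS+IFN-γ, a log2 difference of 1.12 ± 0.09 (SE; edgeR adjusted p = 2.01e-09). LPS and IFN-γ without iMSCs gave a log2 difference of 0.17 ± 0.08 from M0 (adjusted p = 0.0964), which became 0.25 ± 0.07 and passed the threshold of 0.05 without M0+LPS+IFN-γ replicate 4 (edgeR adjusted p = 0.00262). iMSCs without stimulation gave −0.21 ± 0.08 (edgeR adjusted p = 0.0361), with libraries that overlapped those of M0. This call was lost without M0 replicate 1 or 2 or M0+iMSCs replicate 3 or 4, each left out alone. The edgeR adjusted p was up to 0.123, without M0+iMSCs replicate 3. The interaction, which asks whether the response to LPS and IFN-γ differed with iMSCs present, was 1.33 ± 0.12 on the log2 scale (edgeR adjusted p = 4.88e-08). M0 enters every interaction given here, so time in culture and treatment cannot be told apart in it either. In order of level, M0+LPS+IFN-γ+iMSCs came first, followed by M0+LPS+IFN-γ, M0 and M0+iMSCs. The neighbours M0+LPS+IFN-γ and M0 did not differ beyond their spread with all libraries, but did without M0+LPS+IFN-γ replicate 4.

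**Figure D1:**
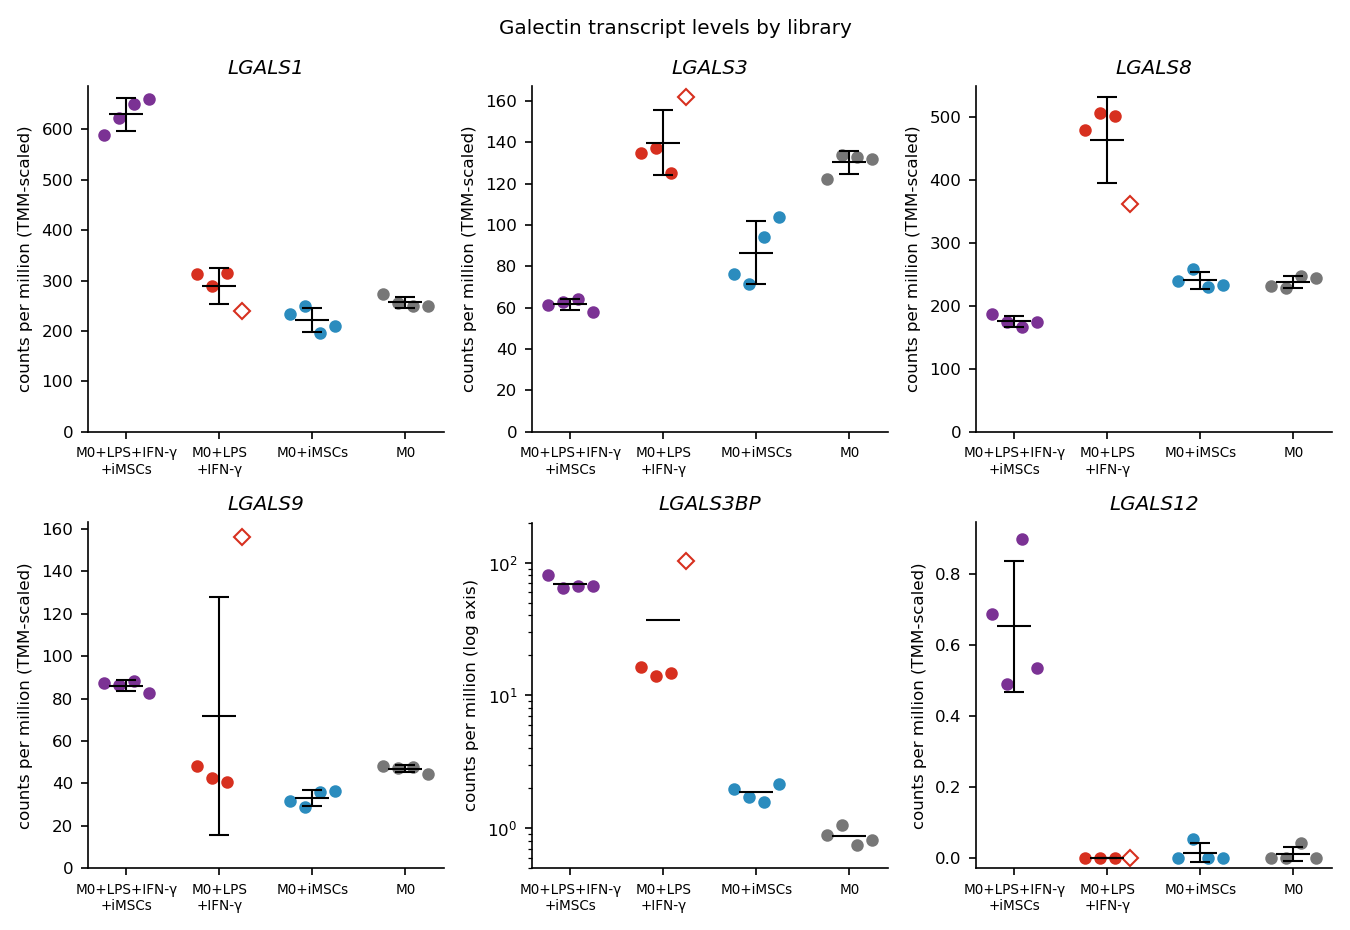
Level of each gene in CPM in every library (points) of the 4 groups, with the mean and SD as horizontal line and bars (mean only for LGALS3BP, whose axis is logarithmic); open diamonds are M0+LPS+IFN-γ replicate 4. LGALS1 sat at 588 to 660 in M0+LPS+IFN-γ+iMSCs and below that in all other libraries, LGALS8 was highest in M0+LPS+IFN-γ, and the diamond lay above the other 3 libraries of its group for LGALS9 and LGALS3BP.

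LGALS2, a second single-domain galectin known mainly from the gut, was almost absent. It had 6 counts over the 4 libraries of M0+LPS+IFN-γ+iMSCs, 1 in M0+LPS+IFN-γ, 3 in M0+iMSCs and 4 in M0. With 14 counts in 16 libraries it fell below the filter, and no difference was detectable at this depth. The gene lies on chromosome 22 at 37570248 to 37582616 of GRCh38.p13, minus strand.

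LGALS3 encodes galectin-3, the only chimera-type member of the family, with a single lectin domain joined to a long repetitive tail through which it oligomerises. It is abundant in macrophages and gathers on damaged phagosomes and lysosomes. The gene lies on chromosome 14 at 55124110 to 55145423 of GRCh38.p13, plus strand. Its libraries held 61.5, 62.9, 64.4 and 58.1 CPM in M0+LPS+IFN-γ+iMSCs. They held 135, 137, 125 and 162 CPM in M0+LPS+IFN-γ. In M0+iMSCs they held 76.5, 71.4, 94.1 and 104 CPM, against 122, 134, 133 and 132 CPM in M0. Both co-culture groups lay wholly below both groups without iMSCs, and the M0+LPS+IFN-γ+iMSCs libraries lay below all others. Within M0+iMSCs, replicates 1 and 2 were lower than replicates 3 and 4.

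LGALS3 fell with iMSCs whether or not the macrophages were stimulated. The log2 difference was −1.18 ± 0.10 between M0+LPS+IFN-γ+iMSCs and M0+LPS+IFN-γ (SE; edgeR adjusted p = 1.1e-08), and −0.59 ± 0.10 between M0+iMSCs and M0 (adjusted p = 4.48e-05). LPS and IFN-γ alone left it within the spread of M0, at 0.10 ± 0.10 (adjusted p = 0.404, 95% interval −0.11 to 0.31). In co-culture, stimulation went with a fall of −0.49 ± 0.10 (M0+LPS+IFN-γ+iMSCs against M0+iMSCs, adjusted p = 0.000292). The interaction was −0.59 ± 0.14 (edgeR adjusted p = 0.00158). It missed the threshold when library totals replaced the TMM factors (−0.25, adjusted p = 0.128).

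LGALS8 encodes galectin-8, which carries 2 different lectin domains on one chain and is known for binding glycans exposed on damaged bacteria-containing vacuoles, where it recruits the autophagy receptor encoded by CALCOCO2. The gene lies on chromosome 1 at 236518000 to 236552981 of GRCh38.p13, plus strand. Its libraries held 187, 174, 166 and 175 CPM in M0+LPS+IFN-γ+iMSCs. In M0+LPS+IFN-γ they held 480, 507, 502 and 362 CPM, the last being the library that stood apart. M0+iMSCs held 240, 259, 230 and 233 CPM, and M0 held 232, 229, 248 and 244 CPM. The stimulated libraries without iMSCs were the highest 4 of the 16, and the stimulated libraries with iMSCs were the lowest 4.

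LGALS8 rose 1.94-fold with LPS and IFN-γ alone, a log2 difference of 0.96 ± 0.08 from M0 (SE; edgeR adjusted p = 3.33e-08). With iMSCs it was 2.64-fold lower under stimulation, at −1.40 ± 0.08 (M0+LPS+IFN-γ+iMSCs against M0+LPS+IFN-γ, adjusted p = 9.18e-11). iMSCs without stimulation gave 0.01 ± 0.08 (adjusted p = 0.881, 95% interval −0.16 to 0.19). The response to stimulation in co-culture was a fall of −0.46 ± 0.08 (M0+LPS+IFN-γ+iMSCs against M0+iMSCs, adjusted p = 8.85e-05), and the interaction was −1.42 ± 0.12 (edgeR adjusted p = 1.85e-08). The neighbours M0+iMSCs and M0 did not differ beyond their spread. The 3' part of LGALS8 overlaps HEATR1 on the other strand over 3977 bases, and HEATR1 had 19450 counts against 92860 for LGALS8 over the 16 libraries. The sources used here do not give whether strand was used in counting, so reads from the overlap cannot be assigned with certainty.

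**Figure D2:**
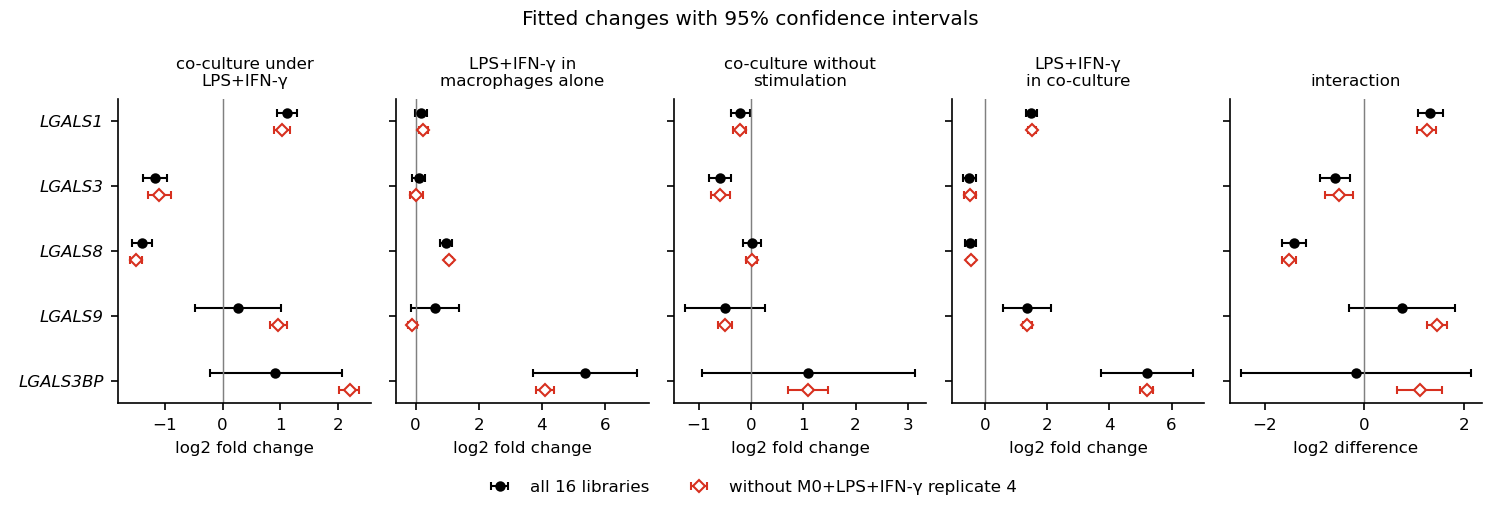
Log2 differences of the 5 tested genes in 5 comparisons, each on its own axis, with 95% intervals, from all 16 libraries (filled circles) and without M0+LPS+IFN-γ replicate 4 (open diamonds). LGALS1 lay above 0 and LGALS3 and LGALS8 below 0 for M0+LPS+IFN-γ+iMSCs against M0+LPS+IFN-γ, while the wide intervals of LGALS9 and LGALS3BP shrank without that library.

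LGALS9 and LGALS3BP encode proteins known to be induced by interferons. LGALS9 encodes galectin-9, a second galectin with a pair of lectin domains and a ligand of the inhibitory receptor TIM-3. LGALS3BP encodes a large secreted glycoprotein, also called 90K or Mac-2-binding protein. Their promoter windows are shown because, of the 5 genes with a window in the RefSeq table, these alone held the core of the interferon-stimulated response element (ISRE), which is GAAA followed after any 2 bases by GAAA on either strand, from 250 bases before to 50 bases after the annotated start. LGALS1 had no window and was not searched, so the 5 genes searched were LGALS2, LGALS3, LGALS8, LGALS9 and LGALS3BP. The capitals mark the match. Both sequences are from RefSeq on GRCh38.p14. The LGALS9 window is chr17:27630938-27631237, plus strand, inside the span that the deposited table gives for the gene (27629798 to 27649560). The LGALS3BP window is chr17:78979874-78980173, read on the minus strand, at the start of a gene that the deposited table places at 78971238 to 78979947.
LGALS9: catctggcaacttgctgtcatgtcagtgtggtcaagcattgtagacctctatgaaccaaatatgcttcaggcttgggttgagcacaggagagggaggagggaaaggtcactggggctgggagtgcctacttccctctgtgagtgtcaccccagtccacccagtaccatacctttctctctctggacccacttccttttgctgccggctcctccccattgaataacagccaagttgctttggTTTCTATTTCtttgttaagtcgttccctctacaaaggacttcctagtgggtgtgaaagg
LGALS3BP: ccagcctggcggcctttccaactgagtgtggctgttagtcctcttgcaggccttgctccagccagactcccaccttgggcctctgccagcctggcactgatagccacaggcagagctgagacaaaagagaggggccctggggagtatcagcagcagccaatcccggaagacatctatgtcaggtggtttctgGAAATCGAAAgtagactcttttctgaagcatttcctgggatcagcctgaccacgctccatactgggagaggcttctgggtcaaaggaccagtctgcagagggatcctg

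The LGALS9 match begins 9 bases before the annotated start and reaches it, on the strand opposite to the motif as written. The LGALS3BP match begins 58 bases before the annotated start of that gene. Of 35116 promoter windows of the same length, 3.57% hold this motif. Of 8 other motifs searched on both strands, the kB pattern (GGG, any 5 bases, CC; in 58.7% of all windows) occurred in windows of LGALS3, LGALS8, LGALS9 and LGALS3BP, and TATAAA (11.5%) in windows of LGALS8. The ISRE core with 1 more spacer base (2.86%), GAS (TTC, any 3 bases, GAA; 7.66%), the E-box CACGTG (7.26%), CLEAR (the E-box with GT before and AC after it; 0.353%), AP-1 (TGACTCA; 4.95%) and CRE (TGAC followed by GTCA; 1.85%) occurred in no window of the 5 genes. A match describes letters only and is no evidence of a bound factor. LGALS9 has near-identical copies, LGALS9B and LGALS9C, shown here to compare the genes at the match. Over the 30 bases around the match they differ from LGALS9 by the substitution T19A, counted from 1 at the 5′ end of the stretch, which removes the match. Their whole windows were 94.2% and 94.1% identical to that of LGALS9 over the aligned bases. Capitals below mark the LGALS9 match and the same positions in LGALS9B and LGALS9C, which hold no match.
LGALS9: gttgctttggTTTCTATTTCtttgttaagt
LGALS9B: gttgctttggTTTCTATTACtttgttaagt
LGALS9C: gttgctttggTTTCTATTACtttgttaagt

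Of the 50-base stretches of the longest LGALS9 coding transcript in GENCODE 29, 17.9% also occur in another gene, and none do so for the other members. The gene AC015688.4 shared the most stretches (249), followed by LGALS9C (230). LGALS9B and LGALS9C held 0 to 3 counts in any library, and how reads shared between copies were handled was not stated in the labels or notes used here. A protein-coding gene without a symbol overlaps LGALS9 on the same strand over 10980 bases and had 0 counts over the 16 libraries. Reads in that overlap cannot be assigned with certainty. The LGALS9 libraries held 87.3, 86.4, 88.3 and 82.5 CPM in M0+LPS+IFN-γ+iMSCs. In M0+LPS+IFN-γ they held 48.1, 42.8, 40.7 and 156 CPM. They held 31.7, 28.8, 35.9 and 36.6 CPM in M0+iMSCs and 48.3, 47.3, 47.7 and 44.4 CPM in M0. Apart from the single value of 156, the co-culture libraries under stimulation were the highest and the co-culture libraries without stimulation the lowest.

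LGALS9 was 2.59-fold higher in M0+LPS+IFN-γ+iMSCs than in M0+iMSCs, a log2 difference of 1.37 ± 0.35 (SE; edgeR adjusted p = 0.0033). In 3 other comparisons, both effects of iMSCs and the interaction, its call depended on M0+LPS+IFN-γ replicate 4, which also enters the shared estimate of spread. M0+LPS+IFN-γ+iMSCs against M0+LPS+IFN-γ gave 0.27 ± 0.35 (adjusted p = 0.501) with that library and 0.97 ± 0.07 (edgeR adjusted p = 2.06e-11) without it. M0+iMSCs against M0 gave −0.50 with and without it, with an adjusted p of 0.227 and 4.96e-07 in edgeR, and the libraries of these 2 groups did not overlap. LPS and IFN-γ alone gave 0.61 ± 0.35 (adjusted p = 0.156) with it and −0.10 ± 0.07 (edgeR adjusted p = 0.236) without it. The interaction was 0.76 ± 0.49 (adjusted p = 0.198) with it and 1.47 ± 0.10 (edgeR adjusted p = 8.62e-12) without it. M0+LPS+IFN-γ+iMSCs was above M0 by 0.88 ± 0.35 (adjusted p = 0.0353), a call that was lost when any single library of either group was left out (edgeR adjusted p up to 0.0711) and that stood at 0.87 ± 0.06 without M0+LPS+IFN-γ replicate 4 (edgeR adjusted p = 1.82e-11).

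LGALS3BP changed over the widest range of the galectin genes. Its libraries held 79.9, 64.6, 66.7 and 66.5 CPM in M0+LPS+IFN-γ+iMSCs. They held 16.3, 14.0, 14.8 and 102 CPM in M0+LPS+IFN-γ. M0+iMSCs held 1.98, 1.73, 1.59 and 2.17 CPM, and M0 held 0.896, 1.05, 0.755 and 0.823 CPM, with 17 to 21 counts a library in M0. Apart from the value of 102, the 4 groups did not overlap, in the order M0+LPS+IFN-γ+iMSCs, M0+LPS+IFN-γ, M0+iMSCs and M0.

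LPS and IFN-γ raised LGALS3BP by 5.37 ± 0.76 on the log2 scale in macrophages alone (SE; M0+LPS+IFN-γ against M0, edgeR adjusted p = 4.7e-05), and by 4.09 ± 0.14, or 17-fold, without M0+LPS+IFN-γ replicate 4 (edgeR adjusted p = 9.94e-17). In co-culture the rise was 5.21 ± 0.68 (M0+LPS+IFN-γ+iMSCs against M0+iMSCs, adjusted p = 1.26e-05). M0+LPS+IFN-γ+iMSCs against M0+LPS+IFN-γ gave 0.92 ± 0.53 (adjusted p = 0.129) with that library and 2.21 ± 0.08, or 4.62-fold, without it (edgeR adjusted p = 2.68e-16). M0+iMSCs against M0 gave 1.09, with an adjusted p of 0.318 with it and 1.57e-05 without it in edgeR. The interaction changed sign with that library, being −0.17 ± 1.07 with it (adjusted p = 0.901) and 1.12 ± 0.22 without it (edgeR adjusted p = 0.000105).

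Counted over the 5 tested genes, 2 rose (LGALS8 and LGALS3BP) and none fell with LPS and IFN-γ alone, where 57.4% of all tested genes passed the threshold in either direction, 29.1% being higher and 28.3% lower. With iMSCs alone, none rose and 2 fell (LGALS1 and LGALS3), against 69.8% of all genes called, 36.2% higher and 33.6% lower. With iMSCs under stimulation, 1 rose (LGALS1) and 2 fell (LGALS3 and LGALS8), against 74.7% of all genes called, 38.4% higher and 36.3% lower. All 5 were called for stimulation in co-culture, where LGALS1, LGALS9 and LGALS3BP rose and LGALS3 and LGALS8 fell, against 74.4% of all genes, 39.3% higher and 35.1% lower. All 5 were also called, in the same directions, for M0+LPS+IFN-γ+iMSCs against M0, against 77.4% of all genes, 39.6% higher and 37.8% lower. The interaction was called for 3 (LGALS1 higher, LGALS3 and LGALS8 lower), against 62.1% of all genes, 31.1% in each direction. The groups did not overlap for 2 of the 5 galectin genes with LPS and IFN-γ alone, 3 with iMSCs alone, 3 with iMSCs under stimulation, and all 5 both for stimulation in co-culture and for M0+LPS+IFN-γ+iMSCs against M0. Over all genes the groups did not overlap for 52.2% with LPS and IFN-γ alone, 69% with iMSCs alone, 65.9% with iMSCs under stimulation, 70.2% for stimulation in co-culture and 76.5% for M0+LPS+IFN-γ+iMSCs against M0. Without M0+LPS+IFN-γ replicate 4, the galectin genes that passed the edgeR threshold numbered 4 for iMSCs alone, where 74.4% of all 15599 genes then tested passed it, 5 for iMSCs under stimulation (77.5%), 5 for the interaction (66.3%) and 3 for LPS and IFN-γ alone (59.1%). Against these backgrounds, the number of calls is no result about galectins as a set. The comparisons share groups, so their results are not independent of one another. In bulk RNA, fewer cells of a type and less RNA per cell cannot be told apart.

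Scaled to exon length, LGALS1 averaged 1190 CPM per kb in M0+LPS+IFN-γ+iMSCs, 548 in M0+LPS+IFN-γ, 421 in M0+iMSCs and 487 in M0. By this level it ranked 35 of 15301 genes in M0+LPS+IFN-γ+iMSCs, 103 in M0+LPS+IFN-γ, 126 in M0+iMSCs and 115 in M0. LGALS1 made up 89.2% ± 0.696 of the summed length-scaled level of the 5 galectins in M0+LPS+IFN-γ+iMSCs, 67.2% ± 5.86 in M0+LPS+IFN-γ (70.1% ± 1.58 over 3 libraries without replicate 4), 73.6% ± 4.03 in M0+iMSCs and 70.5% ± 1.45 in M0 (SD, n = 4). The share of LGALS3 was 4.82% ± 0.316 in M0+LPS+IFN-γ+iMSCs, 18% ± 2.70 in M0+LPS+IFN-γ, 15.9% ± 3.46 in M0+iMSCs and 19.7% ± 1.18 in M0. The summed level itself averaged 1340 CPM per kb in M0+LPS+IFN-γ+iMSCs, 813 in M0+LPS+IFN-γ, 571 in M0+iMSCs and 690 in M0. The LGALS1 share was at least 88.4% in every M0+LPS+IFN-γ+iMSCs library and at most 77.9% in any library of the other groups.

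**Figure D3:**
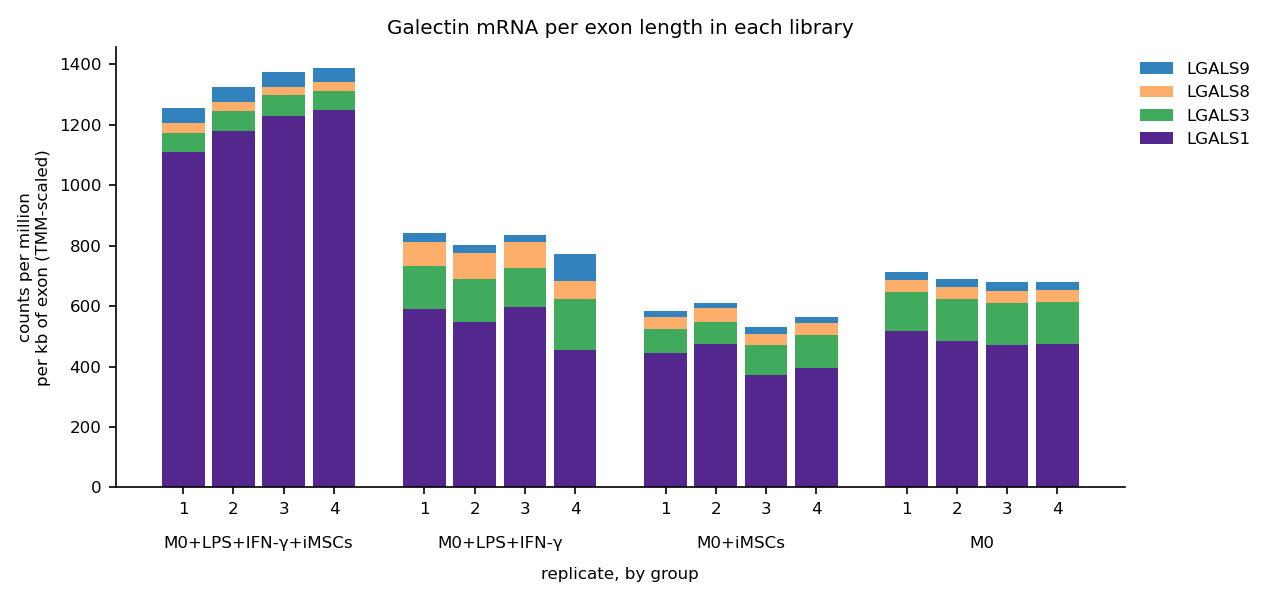
Stacked length-scaled levels (CPM per kb of exon) of LGALS1, LGALS3, LGALS8 and LGALS9 in each library, by group; LGALS2 is too low to be seen. The LGALS1 segment made up 89.2% of the column on average in M0+LPS+IFN-γ+iMSCs and 67.2% to 73.6% in the other groups.

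Of 12 other galectin genes in the table, LGALS12 and LGALSL had enough reads to be tested. LGALS12, known mainly from adipocytes and myeloid cells, had 15, 12, 24 and 11 counts in the M0+LPS+IFN-γ+iMSCs libraries, and over each other group 0 counts in M0+LPS+IFN-γ, 1 in M0+iMSCs and 1 in M0. Against a floor of 3 counts over the M0+LPS+IFN-γ group, it was at least 16.4-fold higher in M0+LPS+IFN-γ+iMSCs. The ratio was 60.7 to M0+iMSCs (95% counting interval 10.5 to 2430) and 56.1 to M0 (9.71 to 2250). These intervals cover counting error only. LGALS12 passed the filter only through its counts in M0+LPS+IFN-γ+iMSCs, so these ratios describe the counts and are no test of a difference. LGALSL, a galectin-like gene without known glycan binding, averaged 0.770 ± 0.300 CPM in M0+LPS+IFN-γ+iMSCs, 0.518 ± 0.182 in M0+LPS+IFN-γ, 1.24 ± 0.221 in M0+iMSCs and 0.915 ± 0.225 in M0.

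The genes whose profiles over the 16 libraries lay closest to each galectin, by the root mean square difference of centred log2 CPM, were as follows. LGALS8 was closest to EPS15L1, which encodes an endocytic adaptor, with a difference of 0.07 against its own SD of 0.54, and then to SNX8 (0.14), a sorting nexin, and YPEL2 (0.14). LGALS1 was closest to TBC1D9 (0.12), COQ2 (0.14), an enzyme of ubiquinone synthesis, and LDHA (0.15), lactate dehydrogenase A. LGALS3 was closest to STK10 (0.13), ATP6V1B2 (0.13), a subunit of the vacuolar proton pump, and ZNF438 (0.14). LGALS9 was closest to PLD3 (0.13), which encodes a lysosomal exonuclease, SCARB2 (0.21), which encodes a lysosomal membrane protein, and RCBTB2 (0.22). Nearest genes were not computed without M0+LPS+IFN-γ replicate 4, whose value weighs in the profiles of LGALS9 and LGALS3BP. LGALS3BP had no close match. Its nearest genes were NCF1B (0.75), a near-identical copy of NCF1 whose reads may not be separable, and the interferon-induced genes IFITM3 (0.77) and OAS2 (0.78), against its own SD of 2.69.

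Galectin binding partners and genes of the damage response were then set beside these levels. These lists, and the glycan genes given after them, were chosen with earlier results of these data known. Their counts are therefore descriptive, and their distance from the shares of all genes is no test. Of 20 tested binding partners, 12 rose and 5 fell with iMSCs under stimulation, with a median log2 difference of 0.71, against a median of 0.03 over all genes, of which 38.4% rose and 36.3% fell. Without M0+LPS+IFN-γ replicate 4, 14 rose and 5 fell, with a median of 0.94. VSIR, which encodes the checkpoint protein VISTA, averaged 224 ± 25.6 CPM in M0+LPS+IFN-γ+iMSCs and 31.6 ± 3.52 in M0+LPS+IFN-γ, and FN1 (fibronectin) averaged 945 ± 134 CPM in M0+LPS+IFN-γ+iMSCs and 86.3 ± 23.8 in M0+LPS+IFN-γ (SD, n = 4). CD44, a hyaluronan receptor and galectin ligand, fell to 659 ± 12.4 CPM in M0+LPS+IFN-γ+iMSCs, against 1610 ± 177 in M0+LPS+IFN-γ. With LPS and IFN-γ alone, 4 partners rose and 8 fell, where 29.1% of all genes rose and 28.3% fell, and without M0+LPS+IFN-γ replicate 4 the falls numbered 13, where 29.4% of all genes fell. FN1 fell by 4.03 there on the log2 scale, while P4HB (protein disulfide isomerase) and CD47 rose by 1.24 and 1.07. With iMSCs alone, 9 partners rose and 5 fell (10 and 8 without M0+LPS+IFN-γ replicate 4), where 36.2% of all genes rose and 33.6% fell. The smallest p-values were those of CD47, SPN (CD43) and NRP1, at 1.15, 1.76 and −0.92 on the log2 scale, while the largest change was that of FN1, which averaged 7290 ± 1020 CPM in M0+iMSCs and 1410 ± 90.2 in M0, a log2 difference of 2.37.

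Of 20 genes of the response to damaged endosomes and lysosomes, 5 rose and 13 fell with iMSCs under stimulation, with a median log2 difference of −0.58 (−0.56 without M0+LPS+IFN-γ replicate 4, with the same counts). Of all genes tested 38.4% rose and 36.3% fell, and their median was 0.03. SQSTM1, which encodes the autophagy receptor p62, averaged 210 ± 15.9 CPM in M0+LPS+IFN-γ+iMSCs, against 631 ± 37.7 in M0+LPS+IFN-γ. MAP1LC3B, an autophagosome protein, averaged 105 ± 8.68 CPM in M0+LPS+IFN-γ+iMSCs and 338 ± 24.7 in M0+LPS+IFN-γ. CALCOCO2, the receptor recruited by galectin-8, averaged 69.2 ± 2.19 CPM in M0+LPS+IFN-γ+iMSCs and 106 ± 4.37 in M0+LPS+IFN-γ, and was lower in the same comparison as LGALS8. Its log2 difference with LPS and IFN-γ alone was 0.44, and it passed the test there too. With iMSCs alone, 4 genes of this list rose and 12 fell, with a median of −0.31, against 0.0308 over all genes, of which 36.2% rose and 33.6% fell. With LPS and IFN-γ alone, 9 rose and 5 fell, with a median of 0.13, against 0.00684 over all genes, of which 29.1% rose and 28.3% fell. The counts for both comparisons were the same without M0+LPS+IFN-γ replicate 4.

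**Figure D4:**
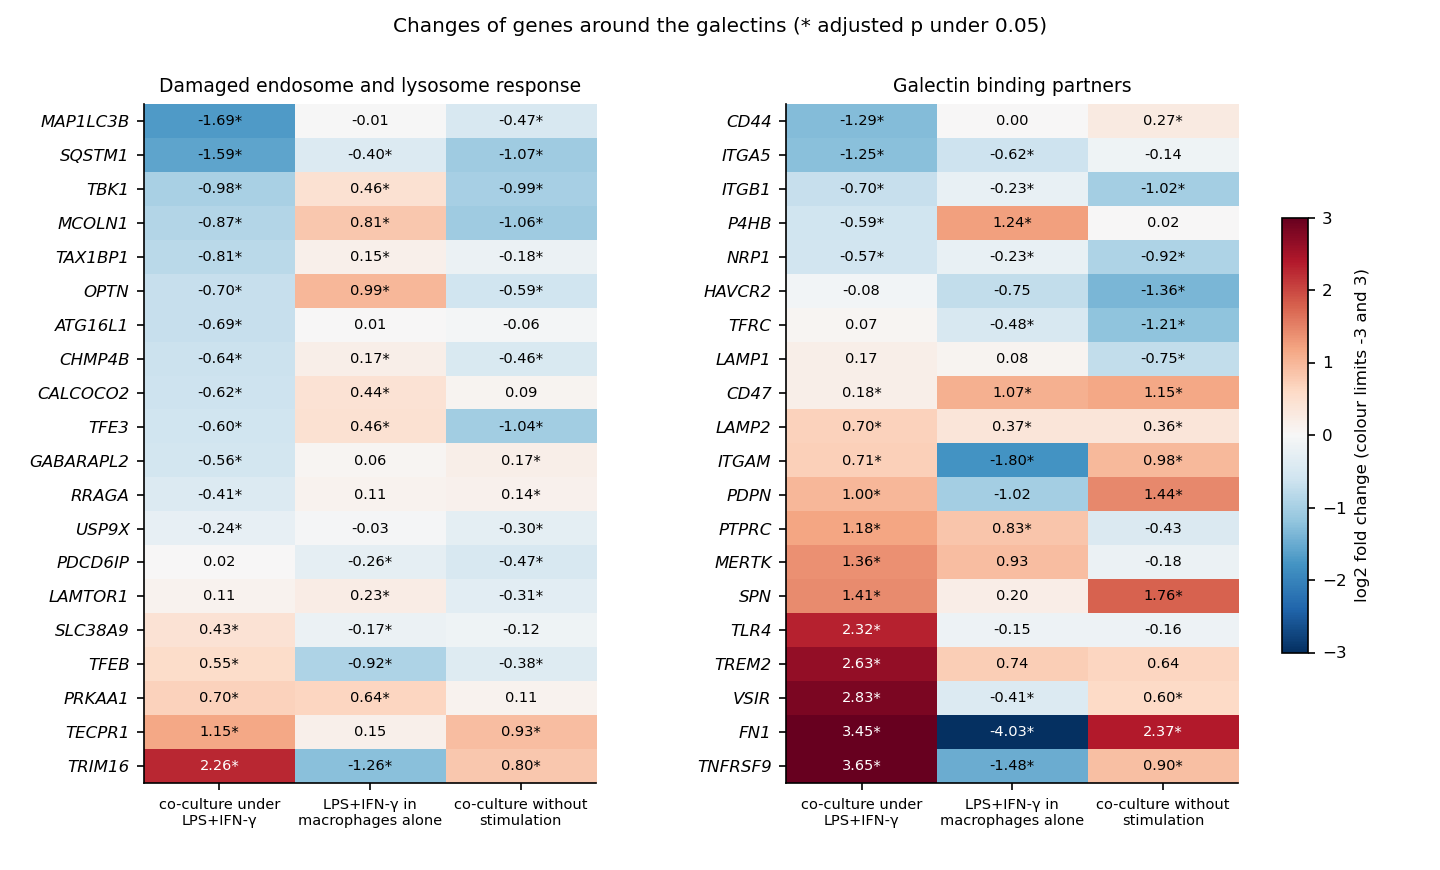
Log2 differences of 20 genes of the damaged endosome and lysosome response (left) and 20 galectin binding partners (right) in 3 comparisons, with an asterisk where the edgeR adjusted p was under 0.05. In the left panel 13 genes were lower with iMSCs under stimulation, led by MAP1LC3B at −1.69 and SQSTM1 at −1.59, and in the right panel 12 were higher, led by TNFRSF9 at 3.65.

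The genes listed next take part in building, capping or trimming the glycans that galectins bind. Of 20 tested, 10 rose and 6 fell with iMSCs under stimulation (12 and 5 without M0+LPS+IFN-γ replicate 4), with a median log2 difference of 0.26 (0.35 without it). Of all genes tested 38.4% rose and 36.3% fell, and their median was 0.03, so the share of the listed genes that was called is near the background. MGAT5, which adds the branch that carries N-acetyllactosamine on N-glycans, averaged 73.0 ± 4.42 CPM in M0+LPS+IFN-γ+iMSCs, against 25.5 ± 2.68 in M0+LPS+IFN-γ. ST6GAL1, whose sialic acid cap is known to block binding of galectin-1, averaged 30.6 ± 1.00 CPM in M0+LPS+IFN-γ+iMSCs and 11.8 ± 1.76 in M0+LPS+IFN-γ. ST3GAL1, which caps O-glycans, averaged 224 ± 26.9 CPM in M0+LPS+IFN-γ+iMSCs and 845 ± 210 in M0+LPS+IFN-γ, and fell by 1.92 on the log2 scale. MGAT5 and ST6GAL1 also rose with iMSCs alone, by 1.28 and 1.27, and 8 genes of this list rose and 8 fell in that comparison (9 and 9 without M0+LPS+IFN-γ replicate 4), where 36.2% of all genes rose and 33.6% fell. With LPS and IFN-γ alone 10 rose and 4 fell (10 and 5 without that library), where 29.1% of all genes rose and 28.3% fell, with ST3GAL6 at −1.76, ST3GAL1 at 1.49 and B3GNT2 at 0.79.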

How the data were processed

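For 16 RNA sequencing libraries the authors deposited raw counts per gene, whole numbers without normalization. Libraries were made with a VAHTS Universal V6 kit from TRIzol-extracted RNA, per the labels' protocols. HISAT2, HTSeq and GRCh38 are named without roles or versions, per the submitters' processing notes, and the annotation is on GRCh38.p13, per the file headers. The multi-mapping and strand settings are not given in the sources used here.

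Library totals were 17336637 to 24368753 counts. From these counts, 15301 genes kept by filterByExpr (minimum count 10) were scaled with TMM factors (0.808 to 1.15) and tested with edgeR 4.0.16 in R 4.3.3. One robust quasi-likelihood fit held all 4 group means with 12 residual degrees of freedom and no block. Adjustment was by Benjamini-Hochberg over all tested genes in each of 6 contrasts, with a threshold of 0.05. Standard errors of log2 fold changes are their sizes divided by the square root of the F statistic. Genes were compared with each other only as CPM per kb of the deposited exon length. Every pair of libraries in a group differed by more than sampling noise, and all 16 were kept.

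The members and the gene lists were chosen with earlier results of these data known. Named genes were all 6 members, the up to 3 members of each other list with the smallest p in a comparison, and the 3 nearest profiles of each member among genes whose log2 CPM averaged 3 or more. Alternatives were RLE and upper-quartile factors, library totals, DESeq2 1.42.0, limma-voom (limma 3.58.1), other filters, only the groups compared, a replicate block and leaving out libraries. Levels, list counts and shares of all genes without M0+LPS+IFN-γ replicate 4 were added after seeing the data. Simulated data with known changes were used to check the fit. Promoter windows are those of RefSeq on GRCh38.p14. Figures were drawn with matplotlib 3.10.9.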

Additional observations from a re-analysis of the deposited data

Results flagged for a closer look

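In a group of 4 libraries, a library was marked when its gap to the nearest other one, divided by the range of the group, was above Dixon's 95% critical value, which chance gives in about 1 of 20 groups. Of 20 groups looked at, 4 were marked. LGALS9 stood at 156 CPM and LGALS3BP at 102 CPM in M0+LPS+IFN-γ replicate 4, the highest of that group in both cases. LGALS3BP stood at 79.9 CPM in M0+LPS+IFN-γ+iMSCs replicate 1, the highest of its group, and LGALS3 at 122 CPM in M0 replicate 1, the lowest of its group. The response to LPS and IFN-γ differed with iMSCs for 3 of the 5 tested genes by the interaction test in edgeR, which 62.1% of all genes passed. The log2 difference between the responses was 1.33 for LGALS1, −0.59 for LGALS3 and −1.42 for LGALS8. Without M0+LPS+IFN-γ replicate 4, all 5 passed this test, as did 66.3% of all genes. These numbers of calls are no result about galectins as a set.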

How the results depend on the processing

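Over 30 gene results and 27 alternatives, 799 values were computed, of which 756 kept direction and side of the threshold, 20 lost the threshold, 12 gained it and 11 changed sign. The cause of these changes was not tested. For iMSCs alone, the number of galectin genes called was 2 in the main fit, 1 with upper-quartile factors, library totals, DESeq2 or without M0+iMSCs replicates 3 and 4 together, and 4 with only the groups compared. Of all 15301 genes, 10681 passed in the main fit, 10613 with upper-quartile factors, 10634 with library totals and 10580 with DESeq2. The numbers were 9613 of 15841 without M0+iMSCs replicates 3 and 4 together and 10936 of 14292 with only the groups compared. Leaving out 1 library at a time gave 1 to 4 genes for iMSCs alone (1 without M0 replicate 1 or 2 or M0+iMSCs replicate 3 or 4), 3 to 5 for iMSCs under stimulation, 3 to 5 for the interaction, 2 to 3 for LPS and IFN-γ alone and 4 to 5 for M0+LPS+IFN-γ+iMSCs against M0, with M0+LPS+IFN-γ replicate 4 behind the highest values for iMSCs alone, iMSCs under stimulation and the interaction. In the main fit 69.8%, 74.7%, 62.1%, 57.4% and 77.4% of all genes passed in these comparisons, in the same order. Without M0+LPS+IFN-γ replicate 4 the shares were 74.4%, 77.5%, 66.3%, 59.1% and 80.4%. The numbers of galectin calls are therefore no result about galectins as a set. DESeq2 called 1 galectin gene with LPS and IFN-γ alone, against 8656 of all 15301 genes, having given no adjusted p for LGALS3BP. Sign changes were LGALS1 (−0.09) and LGALS3 (−0.16) with LPS and IFN-γ alone and the LGALS3BP interaction (0.18) with library totals, which shift the median log2 difference of all genes to −0.25 with LPS and IFN-γ alone and to 0.50 with iMSCs under stimulation. The LGALS3BP interaction was 0.46 with limma-voom. LGALS8 with iMSCs alone ranged from −0.03 to 0.03 over the libraries left out, among them 0 and −0.01, and was −0.04 without M0+iMSCs replicates 1 and 2 together. Without M0+LPS+IFN-γ replicate 4, LGALS9 with LPS and IFN-γ alone was −0.10 and the LGALS3BP interaction 1.12, the ends of ranges of −0.10 to 0.80 and −0.44 to 1.12 over the libraries left out. LGALS3BP with iMSCs under stimulation passed the threshold with library totals (1.41) and limma-voom (1.54). Replicate numbers were not taken to pair samples: 6 of 24 same-number pairs correlated above 0.1 and 17 were below 0. With a replicate block, LGALS3BP with iMSCs under stimulation passed the threshold (1.40, edgeR adjusted p = 0.0219), and its interaction was 0.33. This made 4 galectin genes with iMSCs under stimulation, against 11368 of all 15301 genes. Depth limits LGALS2, with 14 counts in all, LGALS12 and LGALS3BP in M0.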

Other observations

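LGALS8-AS1, the antisense partner of LGALS8, had 7, 7, 9 and 7 counts in M0+LPS+IFN-γ+iMSCs, 5, 6, 10 and 7 in M0+LPS+IFN-γ, 2, 3, 1 and 3 in M0+iMSCs and 0, 2, 5 and 5 in M0. It was below the filter and was not tested. HAVCR2, which encodes the galectin-9 receptor TIM-3, averaged 42.7 ± 3.32 CPM in M0+LPS+IFN-γ+iMSCs, 45.1 ± 47.1 in M0+LPS+IFN-γ, 29.5 ± 2.09 in M0+iMSCs and 75.9 ± 4.8 in M0 (SD, n = 4). A single library, M0+LPS+IFN-γ replicate 4, held 116 CPM, and the other 3 libraries of that group held 21.3 to 21.8 CPM, with a mean of 21.6 ± 0.26, below every other group. HAVCR2 fell by 1.36 on the log2 scale with iMSCs alone. The gene was chosen for mention after its values were seen.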
